A study of Drosophila melanogaster with 8 samples.

Results

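The genes described here are the cytoplasmic translation initiation, elongation and release factors of Drosophila melanogaster, measured in larval macrophages on a high-sugar diet (HSD) and a control diet (CD). Members were all genes whose FlyBase symbol begins with eIF, eEF or eRF followed by a digit. The rule found 53 genes by symbol, of which 47 were among the 11769 genes of the count table and 44 had enough counts to be tested, out of 7844 tested in all. eIF3d2, eIF3f2, eIF3g2, eIF4E3, eIF4E4 and eIF4E7 were not analysed here, and eIF4E5, eIF4E6 and eIF4H2 fell under the low-count filter. The Drosophila eIF4AIII gene carries the symbol CG7483 and so lies outside the rule.

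Translation of a messenger RNA starts when eIF2 brings the initiator tRNA to the small ribosomal subunit, together with eIF1, eIF1A and the large scaffold eIF3. The cap-binding complex eIF4F, made of eIF4E, eIF4G and the RNA helicase eIF4A, recruits the mRNA, and eIF5B joins the large subunit once the start codon is found. In elongation eEF1A delivers aminoacyl-tRNA, eEF1B recharges it with GTP, eEF2 moves the ribosome along and eEF5, the fly eIF5A, helps at peptide bonds that form slowly. eRF1 and eRF3 release the finished chain at a stop codon.

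Poly(A) RNA was sequenced from 4 HSD libraries (replicates 1, 2, 3 and 4) and 4 CD libraries (replicates 1, 3, 4 and 5). All larvae were labelled wild type and carried hmlΔ>2xeGFP, a reporter driven through the Hemolectin promoter that marks hemocytes, and this includes the CD animals. HSD food was the sucrose-yeast CD medium with 10x sucrose added. Blood was taken from 5 larvae of the third instar per collection, raised at 25 °C to 96 h after egg laying. Each replicate holds 20000 GFP-positive cells sorted by flow cytometry. Whether replicates of a diet were grown or sorted separately is not in the labels, and the p-values refer to spread among libraries that may be technical.

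Library totals were 21404732 to 23353269 counts on HSD and 20817891 to 24733521 counts on CD. Levels below are CPM, counts scaled to TMM-adjusted library sizes, and levels of different genes are compared as CPM per kilobase of exon. Summed markers of plasmatocytes, the phagocytic hemocytes, ran from 103497 to 117909 CPM on HSD and from 72331 to 83334 CPM on CD. By edgeR 7 of 9 were higher on HSD, and eater and crq did not pass. Over all tested genes 14.4% were higher, a share to set beside each marker count here. eater averaged 2137 CPM on HSD and 2227 CPM on CD. Of the mean sum, Ppn, Col4a1 and vkg held 34349, 21267 and 14421 CPM on HSD and 19455, 14687 and 9773 CPM on CD. Crystal cell markers summed to 29206 to 44525 CPM on HSD and 22839 to 27006 CPM on CD, with 3 of 4 higher. Lamellocyte markers summed to 20.7 to 37.0 CPM on HSD and 10.3 to 13.0 CPM on CD, with 4 of 4 higher, and ItgaPS4 and atilla were at 0 in at least 1 library. The part of these shifts in the differences below was not tested, and in sorted bulk samples fewer cells of a type and less RNA per cell cannot be told apart. Fat body markers summed to 11.3 to 16.9 CPM on HSD and 9.95 to 56.2 CPM on CD, with none of 3 tested past the threshold and Fbp1 at 0 in at least 1 library. Muscle markers summed to 11.5 to 15.3 CPM on HSD and 10.2 to 12.2 CPM on CD, and lymph gland markers to 1252 to 1355 CPM on HSD and 788 to 851 CPM on CD, with 2 of 3 of these higher. Neuronal markers summed to 7.83 to 11.6 CPM on HSD and 6.39 to 9.45 CPM on CD, and germline markers to 12.3 to 15.5 CPM on HSD and 11.3 to 12.5 CPM on CD.

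The libraries of both diets differed in how their levels related to exon length. Across the 44 tested members, the deviation of a library from a gene's mean over all 8 libraries had a Spearman correlation with exon length of 0.33, −0.19, −0.11 and −0.71 in HSD replicates 1, 2, 3 and 4. In CD replicates 1, 3, 4 and 5 it was −0.49, 0.64, 0.62 and 0.24. These are descriptions across genes that share each library. Over 5803 tested genes with an exon length and averaging 10 CPM or more, HSD replicate 4 and CD replicate 1 were also lowest, at −0.585 and −0.487. The next lowest there was HSD replicate 3, at −0.099. As one alternative, counts are also given without HSD replicate 4 and CD replicate 1, the library with the lowest value in each diet. This pair is defined by values of these same counts, so a call gained without it is no further support.

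Of the 44 tested factors, 6 were higher on HSD, none was lower and 38 did not pass the threshold (edgeR quasi-likelihood test over all tested genes, Benjamini-Hochberg adjusted p under 0.05). The 6 were eEF1alpha1, eIF3h, eIF4A, eIF1A, eIF2A and eEF5. Over all tested genes 14.4% were higher on HSD and 11.6% lower, 26% in all, so the share of factors called higher, 13.6%, was near that of the whole table. At an unadjusted p under 0.05, 12 factors were higher and 2 lower, where 19.4% and 18.1% of all tested genes were. DESeq2 called 10 factors higher and 2 lower, beside 15.1% and 13.1% of all tested genes, and limma-voom called 14 higher and 2 lower, beside 19.1% and 18.2%. Without HSD replicate 4 and CD replicate 1, 14 were higher and 3 lower, in a fit that called 17.9% of all tested genes higher and 16.3% lower, and the 6 genes named above were among the 14. With library totals as the only scaling the median of all tested genes moved to −0.17 on the log2 scale and the split became 2 higher, eEF1alpha1 and eIF3h, and 16 lower, where 8.8% of all tested genes were higher and 40.3% lower. eIF4A, eIF1A, eIF2A and eEF5 then had log2 fold changes of 0.04, 0.05, 0.03 and 0.06 and did not pass. The changes below are therefore relative to the bulk of the transcriptome as TMM sets it.

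The median log2 fold change of the 44 factors was 0.06, against −0.01 over all tested genes, with 28 positive and 16 negative. Their median absolute log2 fold change was 0.10, against 0.14 over all tested genes and 0.12 over the 5838 tested genes averaging 10 CPM or more. Without regard to p, 3 factors differed by more than 1.2-fold, eIF3h, eEF1alpha1 and the sparsely counted eIF5, where 27.7% of all tested genes did, and none differed by more than 1.5-fold, where 11.1% of all tested genes did. The 95% interval of the difference lay within a 1.2-fold change either way for 30 of the 44. Of all tested genes 35.4% met that limit, but interval width also depends on how many counts a gene has. The median level was 292 CPM over the factors and 30.6 CPM over all tested genes, so these shares do not compare genes of equal level. Within 1.5-fold lay the intervals of 42 factors, and the share of all tested genes was not taken there. The exceptions to the wider limit were eIF5 and eEF1alpha2, both with few counts. In 10 factors all HSD libraries exceeded all CD libraries, which held for 15.1% of all tested genes, and in 2, eIF3d1 and eRF3, all HSD libraries lay below, which held for 12.9%.

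**Figure D1:**
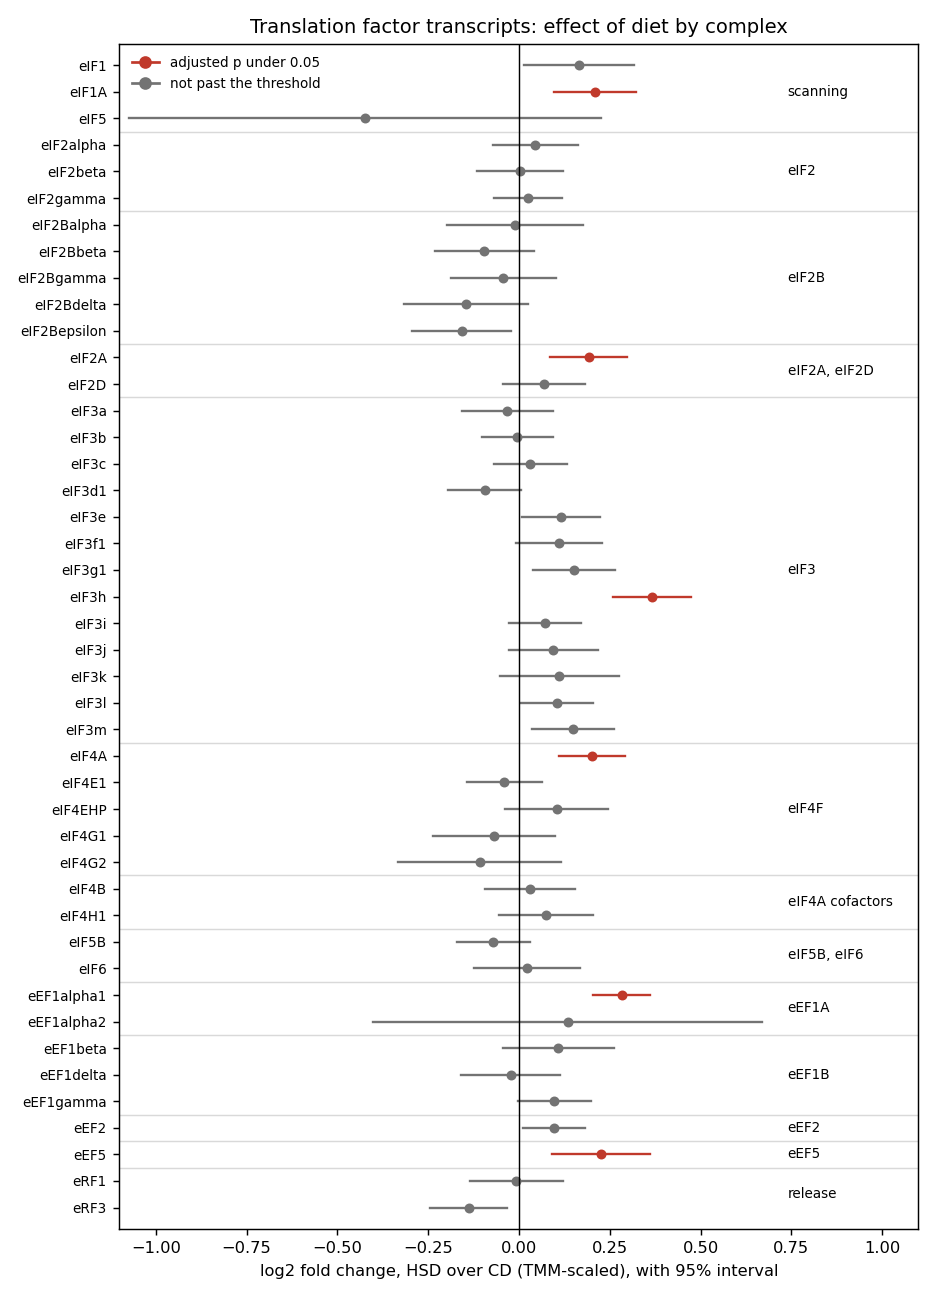
Log2 fold change of each of the 44 tested factors, HSD over CD after TMM scaling, on the horizontal axis, with its 95% interval as a bar and the factors grouped by complex from initiation at the top to release at the bottom. The 6 factors past an adjusted p of 0.05 are red, all to the right of 0, and the intervals of 30 factors stay within a 1.2-fold change.

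None of the subunits of eIF2, the main initiator tRNA carrier, passed the threshold. eIF2alpha, eIF2beta and eIF2gamma had log2 fold changes of 0.05, 0.00 and 0.03, with standard errors of 0.0536, 0.0539 and 0.0429. The most abundant of them per kilobase was eIF2beta, the subunit that contacts eIF5 and eIF2B. It stood at 301, 314, 290.5 and 322 CPM in the HSD libraries, against 329.5, 297, 294 and 304 CPM in the CD libraries, and the diets overlapped. Summed over the 3 subunits, eIF2 reached 529 ± 17.7 CPM per kilobase on HSD and 522 ± 22.4 on CD (SD, n = 4 each). The exons of eIF2gamma overlap those of Su(var)3-9 on the same strand over 16.0% of their length, and those of eIF2alpha overlap rngo on the opposite strand over 12.6%. At 5243 to 5642 counts on HSD and 5318 to 6777 on CD for eIF2gamma, against 301 to 344 on HSD and 398 to 487 on CD for Su(var)3-9, the neighbour of eIF2gamma was far the scarcer. eIF2alpha held 4366 to 4873 counts on HSD and 4475 to 5408 on CD, and its neighbour rngo held 1562 to 1725 on HSD and 1784 to 2149 on CD. The levels of eIF2alpha and eIF2gamma are uncertain through these overlaps.

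eIF2B recycles eIF2 by exchanging its GDP for GTP, and is inhibited when stress kinases phosphorylate eIF2alpha. All 5 subunits had negative log2 fold changes, between −0.16 and −0.01, and none passed the threshold. eIF2Bbeta, the most abundant per kilobase, had 61.3, 61.2, 62.7 and 69.2 CPM in HSD libraries and 73.7, 69.4, 62.9 and 65.7 CPM in CD libraries, which overlap. The catalytic subunit eIF2Bepsilon came nearest, at −0.16 (standard error 0.0625, edgeR adjusted p = 0.0849), and passed without HSD replicate 4 and CD replicate 1. The mean subunit level of eIF2 was 6.17 ± 0.224 times that of eIF2B on HSD and 5.72 ± 0.131 times on CD (SD, n = 4 each). In this ratio of per-kilobase levels all HSD libraries exceeded all CD libraries, and the ratio was not tested.

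eIF2A and eIF2D can bring initiator tRNA to the ribosome without eIF2, as known from mammalian and yeast work. eIF2A was 1.14-fold higher on HSD, and eIF2D did not pass, with a log2 fold change of 0.07 (standard error 0.0522). In HSD libraries eIF2A stood at 425, 433, 433 and 406 CPM, and in CD libraries at 366, 374, 356 and 387 CPM. All HSD values were above all CD values. The diets differed by 0.19 on the log2 scale (standard error 0.0490, edgeR adjusted p = 0.0116).

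Start codon recognition was represented by eIF1, which guards against wrong start codons, eIF1A, which binds the ribosomal A site during scanning, and eIF5, which triggers GTP hydrolysis by eIF2. eIF1A, a gene on chromosome arm 3R, was 1.16-fold higher on HSD. It had 444, 421, 423 and 458 CPM in HSD libraries, against 399, 377, 365 and 369 CPM in CD libraries, with no overlap. On the log2 scale eIF1A differed by 0.21 (standard error 0.0517, edgeR adjusted p = 0.0101).

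eIF1 had 291, 307, 289 and 341 CPM on HSD and 305, 262, 273 and 254 CPM on CD, so CD replicate 1 lay among the HSD libraries. Its log2 fold change of 0.17 (standard error 0.0697) did not pass, at an edgeR adjusted p of 0.101. eIF1 passed without CD replicate 1, but leaving out that library removes the overlap by itself, so this is no further support. The row of eIF5 held 8 to 16 counts per HSD library and 15 to 20 per CD library, far fewer than eIF1 or eIF1A. The exons of eIF5, at chrX:15987008-15991974 on the minus strand of dm6, overlap CG46312 on the same strand over 80.8% of their length, so the level of eIF5 cannot be read from this row. Its log2 fold change of −0.42 had a standard error of 0.299.

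eIF3 is the largest initiation factor, a scaffold that holds the small subunit, the other factors and the mRNA together. Of its 13 listed subunits, eIF3h was higher on HSD, none was lower and 12 did not pass. The log2 fold changes ran from −0.09 in eIF3d1, a subunit that in human cells can bind the cap itself, to 0.37 in eIF3h, with a median of 0.10. eIF3h, a subunit of eIF3 that budding yeast lacks, is encoded on chromosome arm 2L and had 237, 238, 249.7 and 268 CPM in HSD libraries and 197, 193, 189.8 and 191 CPM in CD libraries. The lowest HSD library was well above the highest CD library.

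On the log2 scale eIF3h differed by 0.37 (standard error 0.0495, edgeR adjusted p = 0.000143), a 1.29-fold difference and the highest value among the 44 factors. It is uncertain in size because 16.8% of its exon length, at chr2L:5051193-5053094 on the minus strand, overlaps senju on the opposite strand, and the strand setting of the counting is not given in the sources used here. senju held 756 to 911 counts on HSD and 536 to 681 on CD, and was itself higher on HSD (0.65 on the log2 scale with a standard error of 0.0804, edgeR adjusted p = 6.96e-05). eIF3h held 5010 to 5577 counts on HSD and 4156 to 5159 on CD.

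Per kilobase of exon the highest subunit, eIF3i, was 2.06 times the lowest, eIF3j, on HSD and 2.09 times on CD. eIF3i had 303, 319, 328 and 309 CPM on HSD and 302, 297, 293 and 306 CPM on CD, with the diets overlapping. Set against the mean of the other 12 subunits, eIF3h stood at 0.813 ± 0.0280 on HSD and 0.662 ± 0.0139 on CD (SD, n = 4 each). On CD its 129 CPM per kilobase lay between eIF3j at 122 and eIF3k at 149. On HSD its 166 ± 9.70 CPM per kilobase did not differ beyond the spread from eIF3k at 161 ± 16.4 or eIF3l at 165 ± 3.28.

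2 further subunits lay just outside the threshold. eIF3g1, an RNA-binding subunit, had a log2 fold change of 0.15 (standard error 0.0523, edgeR adjusted p = 0.0507). eIF3m, a subunit shared by fission yeast and animals, had one of 0.15 (standard error 0.0516, edgeR adjusted p = 0.0515). Both showed no overlap between the diets, and both passed under DESeq2, RLE scaling and without HSD replicate 4 and CD replicate 1. eIF3a, eIF3b and eIF3c, the large subunits, had log2 fold changes of −0.03, 0.00 and 0.03. Summed over 13 subunits, eIF3 reached 2612 ± 71.6 CPM per kilobase on HSD and 2464 ± 58.3 on CD (SD, n = 4 each).

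**Figure D2:**
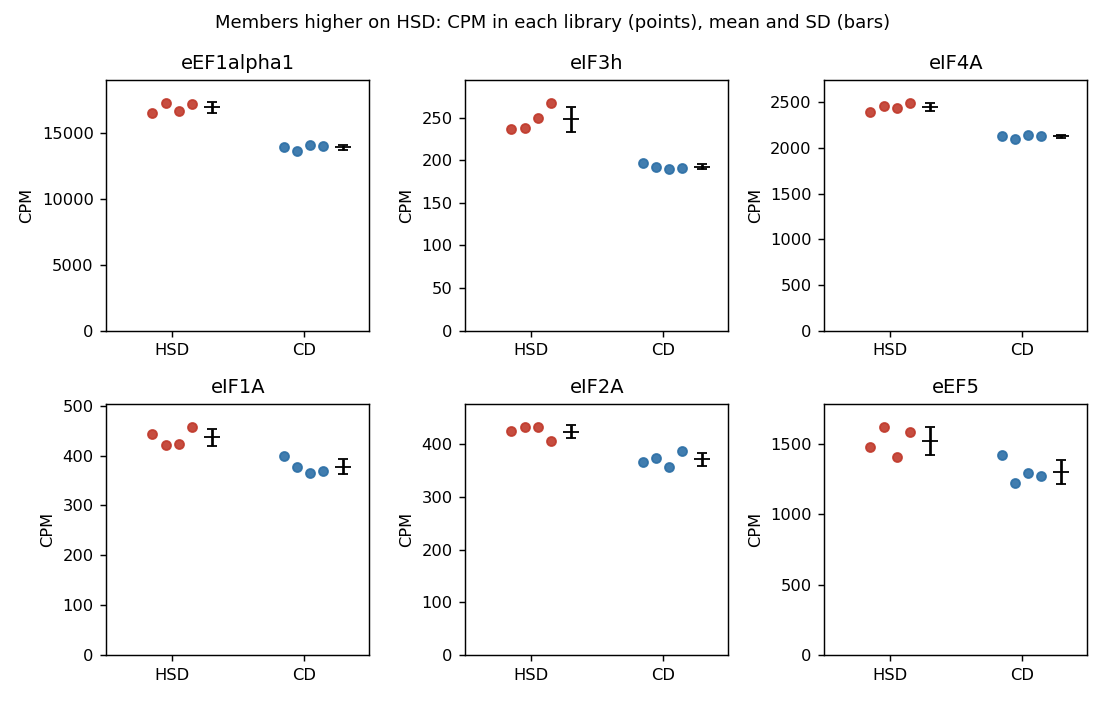
CPM after TMM scaling in each library for the 6 factors past the threshold, with HSD libraries in red on the left and CD libraries in blue on the right of each panel, and the mean and SD beside the points. The diets are apart in 5 panels, and in eEF5 CD replicate 1, at 1420.4 CPM, is above HSD replicate 3, at 1410.0 CPM.

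Within the cap-binding complex eIF4F the helicase eIF4A was higher on HSD, and the cap-binding subunit and the scaffold did not pass the threshold. eIF4A, on chromosome arm 2L, had 2389.6, 2458, 2437 and 2498 CPM in HSD libraries and 2137, 2103, 2139 and 2129 CPM in CD libraries. The HSD values were all above the CD values, and the libraries of a diet lay close together. This was a difference of 0.20 on the log2 scale (standard error 0.0414, edgeR adjusted p = 0.00311), a 1.15-fold difference.

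eIF4E1, the main cap-binding protein, averaged 379.5 ± 13.0 CPM on HSD and 390.2 ± 9.68 CPM on CD (SD, n = 4 each), a log2 fold change of −0.04 with a 95% interval from −0.14 to 0.06. eIF4G1, the scaffold, had a log2 fold change of −0.07 with an interval from −0.24 to 0.10. In each library the per-kilobase level of eIF4A was divided by that of eIF4E1. The ratio was 5.87, 5.99, 5.68 and 5.72 on HSD and 4.82, 4.94, 4.84 and 5.04 on CD, without overlap. The ratio of eIF4A to eIF4G1 overlapped between the diets, at 10.5 to 12.6 on HSD and 8.46 to 10.9 on CD.

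One gene carried most of each paralog group. eIF4E1 made up 93.9 ± 0.407% on HSD and 94.4 ± 0.501% on CD of the per-kilobase level of the listed eIF4E genes with eIF4EHP, a cap-binding repressor that does not bind eIF4G. eIF4E5 held 7 counts over the 4 HSD libraries and 19 over the 4 CD libraries, and eIF4E6 held 18 on HSD and 13 on CD. eIF4G1 made up 92.5 ± 0.348% of eIF4G on HSD and 92.4 ± 0.478% on CD (SD, n = 4 each), with eIF4G2, the other scaffold gene, as the rest. eIF4EHP and eIF4G2 had log2 fold changes of 0.10 and −0.11, with standard errors of 0.0653 and 0.102, and did not pass.

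The helicase cofactors and the joining factors did not pass either. eIF4B, which stimulates eIF4A, had 205, 199.8, 183 and 208 CPM on HSD and 205, 196, 198 and 179 CPM on CD, with full overlap. eIF4H1, a related cofactor, had a log2 fold change of 0.07, and eIF4H2 held 1 count over all HSD libraries and 1 over all CD libraries. eIF6, which keeps free large subunits apart from small ones, had 86.8, 83.6, 95.1 and 98.5 CPM on HSD and 98.9, 87.2, 83.3 and 89.3 CPM on CD. eIF5B, the GTPase of subunit joining, had a log2 fold change of −0.07 (standard error 0.0464).

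Among the elongation factors, eEF1alpha1 and eEF5 were higher on HSD, and the eEF1B subunits and eEF2 did not pass. eEF1alpha1, the widely expressed eEF1A gene on chromosome arm 2R, had the smallest p of the 44 factors and was 1.22-fold higher. It stood at 16509.7, 17274, 16621 and 17195 CPM in HSD libraries and at 13925, 13602, 14035 and 13989 CPM in CD libraries. The lowest HSD library was far above the highest CD library. The difference was 0.28 on the log2 scale (standard error 0.0360, edgeR adjusted p = 8.55e-05), and it was still 0.12 (edgeR adjusted p = 0.00688) with library totals as the only scaling.

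This one gene made up 41.8 ± 0.246% of all counts of the factors on HSD and 38.6 ± 0.366% on CD (SD, n = 4 each). As a share of all deposited counts without further scaling, the factors together held 3.82 ± 0.0595% on HSD and 3.81 ± 0.0803% on CD. eEF1alpha1 held 1.60 ± 0.0275% on HSD and 1.47 ± 0.0395% on CD, and the other factors held 2.23 ± 0.0350% on HSD and 2.34 ± 0.0444% on CD. The total share thus overlapped between the diets, while eEF1alpha1 took more of it in every HSD library than in any CD library.

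Its paralog eEF1alpha2, known in Drosophila for nervous system and muscle, was sparsely counted. It held 48, 29, 32 and 40 counts in HSD libraries and 26, 45, 48 and 32 counts in CD libraries, with full overlap. That was 0.00963 ± 0.00237% of the eEF1A level per kilobase on HSD and 0.0106 ± 0.00256% on CD (SD, n = 4 each). Its log2 fold change of 0.13 had a 95% interval from −0.40 to 0.67, so at this depth a difference of the size seen in eEF1alpha1 could not be told from none.

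eEF1B, the exchange factor of eEF1A, has the subunits eEF1beta, eEF1delta and eEF1gamma, with log2 fold changes of 0.11, −0.02 and 0.10. eEF1gamma, the most abundant per kilobase, had 2667, 2772, 2869 and 2863 CPM on HSD and 2699, 2546, 2538 and 2656 CPM on CD, where CD replicate 1 lay above HSD replicate 1. eEF1beta and eEF1gamma both passed without HSD replicate 4 and CD replicate 1, and eEF1delta did not. eEF1alpha1 stood at 6.45 ± 0.236 times the mean eEF1B subunit per kilobase on HSD and at 5.62 ± 0.296 times on CD (SD, n = 4 each), with every HSD library above every CD library.

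eEF2, the translocase, had 5647, 5965, 5805 and 5678 CPM on HSD and 5323, 5374, 5400.0 and 5499.85 CPM on CD. The diets did not overlap, yet the log2 fold change of 0.10 (standard error 0.0397) did not pass, at an edgeR adjusted p of 0.0945. DESeq2 called it higher, as did the fit without HSD replicate 4 and CD replicate 1. The ratio of eEF1alpha1 to eEF2 per kilobase was 3.63, 3.59, 3.55 and 3.76 on HSD and 3.24, 3.14, 3.22 and 3.15 on CD, again without overlap.

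eEF5 stood at 1479.7, 1624, 1410.0 and 1587 CPM in HSD libraries and at 1420.4, 1224, 1295 and 1274 CPM in CD libraries. Here the diets overlapped through CD replicate 1 and HSD replicate 3. The difference was 0.23 on the log2 scale (standard error 0.0618, edgeR adjusted p = 0.0167), a 1.17-fold difference. The call ended when 1 library was left out, with edgeR adjusted p = 0.0631 without HSD replicate 2, 0.0618 without CD replicate 3 and 0.0563 without CD replicate 5.

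Neither release factor passed the threshold, and both had negative log2 fold changes. eRF3, the GTPase of termination and the more abundant per kilobase, had 407, 381, 373 and 388 CPM on HSD and 410.2, 434, 429 and 432 CPM on CD. Every HSD library lay below every CD library, though HSD replicate 1 and CD replicate 1 were close. The log2 fold change was −0.14 (standard error 0.0489, edgeR adjusted p = 0.0543), and it passed under DESeq2, RLE scaling and without HSD replicate 4 and CD replicate 1. eRF1, which reads the stop codon, had a log2 fold change of −0.01 (standard error 0.0589).

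**Figure D3:**
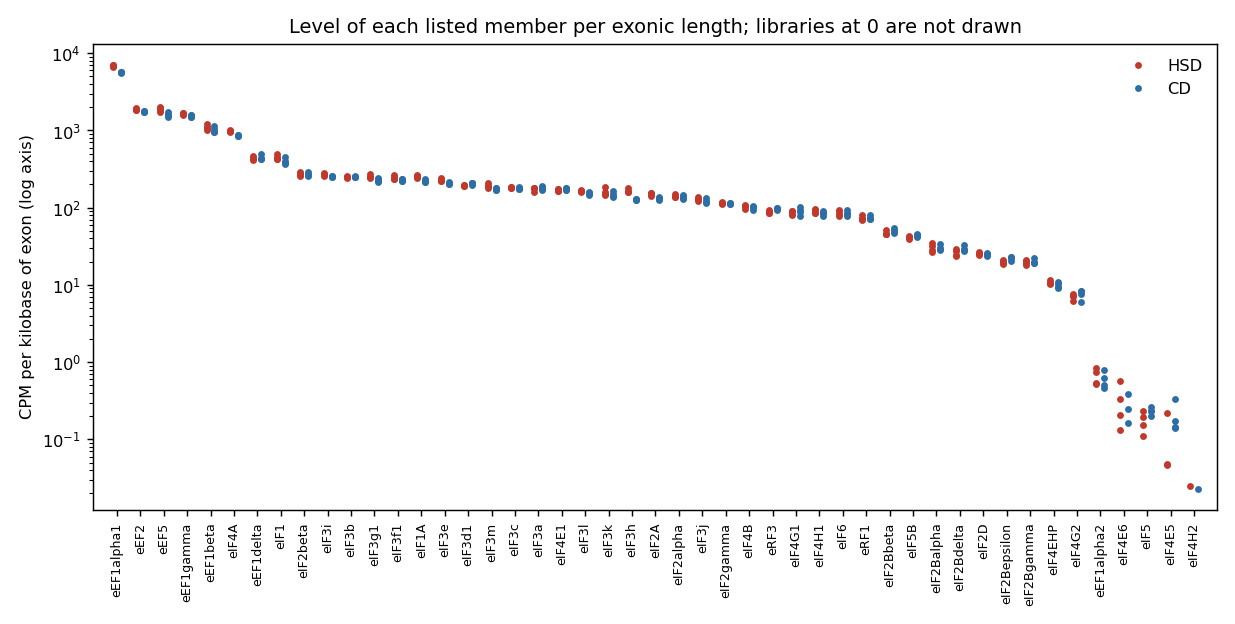
CPM per kilobase of exon on a log axis for the 47 listed factors, ordered by level, with each HSD library as a red point on the left and each CD library as a blue point on the right of each gene. eEF1alpha1 is at the top, at 6859 on HSD and 5637 on CD, and libraries with 0 counts are not drawn.

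The summed levels of the complexes were far from equal, but the sums cover different numbers of genes and so do not rank the factors per subunit. Of the eIF4F sum below, eIF4A held 986 on HSD and 858 on CD, and the scanning sum includes the eIF5 row that cannot be read. eEF1A reached 6859 ± 158 CPM per kilobase on HSD and 5637 ± 79.6 on CD. Next came eEF1B summed over its subunits, at 3195 ± 141 on HSD and 3014 ± 169 on CD, and the 13 subunits of eIF3 as given above. eEF2 was at 1889 ± 47.3 on HSD and 1767 ± 24.3 on CD, and eEF5 at 1889.7 ± 121 on HSD and 1615 ± 104 on CD, which do not differ from eEF2 beyond the spread on HSD. The eIF4F genes summed to 1260.5 ± 17.6 on HSD and 1141 ± 14.5 on CD, and the scanning factors to 705 ± 42.4 on HSD and 621 ± 40.9 on CD. At the low end were the helicase cofactors, at 193 ± 9.47 on HSD and 186 ± 6.34 on CD, and eIF2A with eIF2D, at 176 ± 3.83 on HSD and 156 ± 4.67 on CD. Near them lay the release factors, at 161 ± 5.16 on HSD and 170.4 ± 1.74 on CD, eIF2B, at 143 ± 8.96 on HSD and 152 ± 9.51 on CD, and the joining factors, at 128 ± 5.82 on HSD and 128 ± 7.19 on CD (SD, n = 4 each throughout).

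Shorter factors tended to have higher fold changes. Across the 44 members the Spearman correlation of log2 fold change with exon length was −0.35. Across 5803 tested genes with an exon length and averaging 10 CPM or more it was −0.26. Both are descriptions over genes that share the same 8 libraries. The median log2 fold change was 0.10 in the 22 shorter members and −0.01 in the 22 longer ones. With each library's length trend entered as an offset, a setting chosen after seeing the data, 10 factors were higher and 3 lower, beside 16.9% and 16.4% of all tested genes, and all 6 genes called above were among the 10. With the offset eEF5, eIF3h and eIF1A had smaller log2 fold changes, of 0.16, 0.33 and 0.19. eEF1alpha1, eIF2A and eIF4A had slightly larger ones, of 0.29, 0.21 and 0.21.

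The factors act with partner and regulator genes, which were described as 5 lists holding 43 tested genes, of which 5 were higher on HSD, 7 were lower and 31 did not pass, beside the 14.4% and 11.6% of all tested genes. With library totals as the only scaling 2 of them, Thor and Paip2, were higher and 23 lower, beside 8.8% and 40.3% of all tested genes. Of 14 tested cap-binding regulators 3 were higher and 3 lower, with a median log2 fold change of −0.03. Thor, the fly 4E-BP that sequesters eIF4E, was among the higher ones. In each library its level per kilobase was divided by that of its target eIF4E1. The ratio was 0.357, 0.288, 0.385 and 0.378 on HSD and 0.0281, 0.0366, 0.0468 and 0.0600 on CD, so every HSD library was well above every CD library. Thor itself had a log2 fold change with a 95% interval from 2.55 to 3.45 (edgeR adjusted p = 8.01e-06), beside the −0.04 of eIF4E1. On HSD too the Thor transcript stayed under the eIF4E1 transcript per kilobase.

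**Figure D4:**
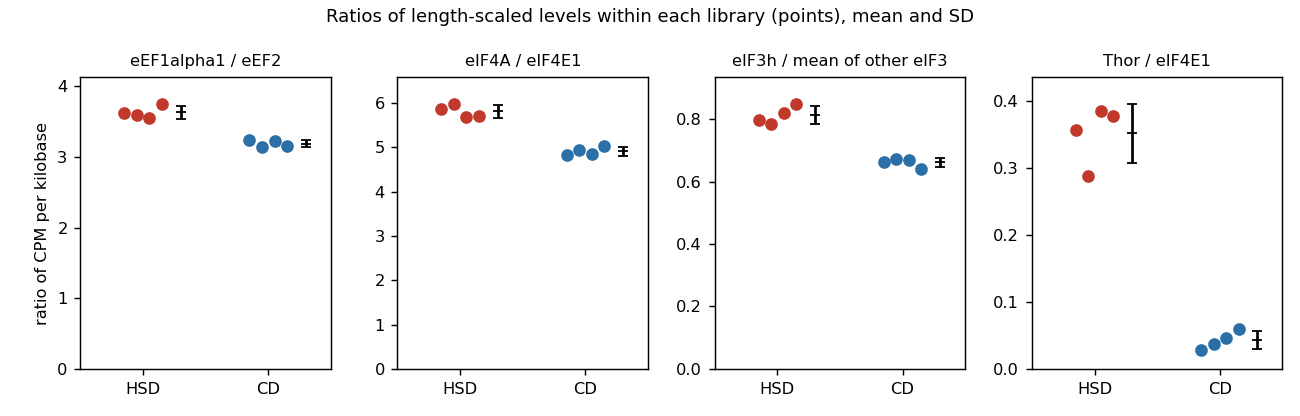
Ratios of CPM per kilobase within each library for eEF1alpha1 over eEF2, eIF4A over eIF4E1, eIF3h over the mean of the other eIF3 subunits, and Thor over eIF4E1, with HSD in red on the left and CD in blue on the right, and the mean and SD beside the points. In all 4 panels the HSD libraries lie above the CD libraries. They run from 3.55 upward against 3.24 and below for the first and from 0.288 upward against 0.0600 and below for the last. Each numerator was already called higher in these same libraries and no denominator gene passed, so the separation is no further support. Other ratios, among them eIF4A over eIF4G1, which overlapped between the diets, are not drawn.

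The poly(A)-binding protein gene pAbp, which links the mRNA tail to eIF4G, stood at 3396 ± 336 CPM on HSD and 2854 ± 226 CPM on CD (SD, n = 4 each). The diets differed by 0.25 on the log2 scale (edgeR adjusted p = 0.0283), and the call was lost without HSD replicate 1 (0.0874), HSD replicate 2 (0.0911), CD replicate 1 (0.0506) or CD replicate 5 (0.0812). Paip2, an inhibitor of pAbp, stood at 74.0 ± 6.77 CPM on HSD and 56.3 ± 3.18 CPM on CD, with a log2 fold change of 0.40 (edgeR adjusted p = 0.00117). Cbp80, the large subunit of the nuclear cap-binding complex, was lower, at 102 ± 2.24 CPM on HSD and 123 ± 4.44 CPM on CD, with a log2 fold change of −0.26 (edgeR adjusted p = 0.000783). NAT1, an eIF4G relative that does not bind eIF4E, had a log2 fold change of −0.18 (edgeR adjusted p = 0.0396), and without HSD replicate 4 its adjusted p was 0.0930. tral, which works with me31B in repression of mRNAs and is named here after its values were seen, was lower at −0.15 (edgeR adjusted p = 0.0449). Both NAT1 and tral lost their call when any 1 of 7 libraries was left out, all but CD replicate 1.

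The integrated stress response list had 5 tested genes, with PEK lower and none higher. PEK, the kinase that phosphorylates eIF2alpha under stress in the endoplasmic reticulum, had 80.1, 78.3, 83.0 and 80.8 CPM on HSD and 86.8, 87.2, 88.7 and 94.3 CPM on CD, without overlap. This was a log2 difference of −0.15 (standard error 0.0474, edgeR adjusted p = 0.0363), and the call was lost when HSD replicate 1, 2 or 4 or CD replicate 3, 4 or 5 was left out, with adjusted p from 0.0572 to 0.121. The other eIF2alpha kinase, Gcn2, did not pass at −0.15 (standard error 0.0719), nor did PPP1R15, the phosphatase subunit that reverses them, at 0.03 (standard error 0.0528). crc, the fly ATF4, overlaps CG46314 over 73.5% of its exon length and is uncertain.

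Of 8 tested recycling and rescue genes, pix was higher and HBS1 lower. pix, the fly ABCE1 that splits ribosomes after release, stood at 319, 331, 328 and 329 CPM on HSD and at 273, 270.4, 276 and 282 CPM on CD. Its values did not overlap, and the log2 fold change was 0.25 (standard error 0.0428, edgeR adjusted p = 0.00100). HBS1, an eRF3 relative that acts with pelo on stalled ribosomes, stood at 42.7, 44.0, 45.3 and 43.8 CPM on HSD and at 52.5, 50.8, 48.4 and 51.1 CPM on CD. It differed by −0.21 on the log2 scale (standard error 0.0504, edgeR adjusted p = 0.00910), while pelo itself did not pass at −0.05 (standard error 0.0446).

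Among 7 tested enzymes that modify the factors, Dph3 was higher and Dph1 lower, and both belong to the pathway that makes diphthamide on eEF2. Dph1 had 18.6, 18.6, 17.9 and 18.8 CPM on HSD and 21.0, 23.4, 25.8 and 23.7 CPM on CD, with a log2 fold change of −0.35 (standard error 0.0689, edgeR adjusted p = 0.00253). Dph3 overlaps Arfip over 22.8% of its exon length, is uncertain, and lost its call without HSD replicate 3 or 4 or CD replicate 3, 4 or 5. Dhps and nero, the 2 enzymes that make hypusine on eEF5, had log2 fold changes of 0.09 and −0.09 and did not pass. Of 9 mitochondrial translation factors, mEFG1, the mitochondrial counterpart of eEF2, was lower at −0.18 (edgeR adjusted p = 0.0413), with 17.1% of its exon length shared with an antisense RNA. That call was lost without any 1 library other than HSD replicate 3, with adjusted p from 0.0619 to 0.118.

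**Figure D5:**
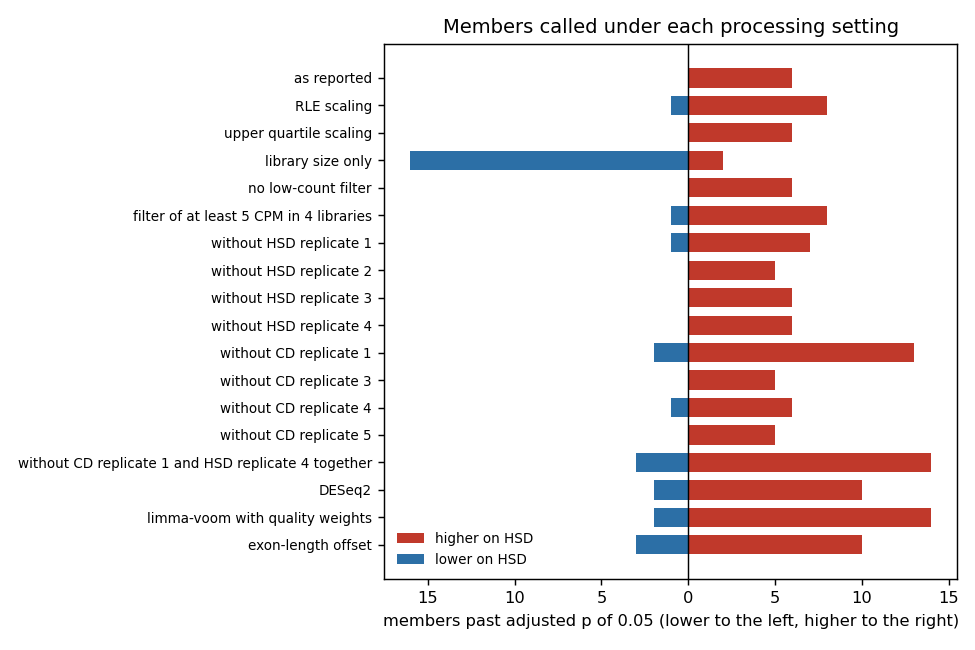
Number of factors past an adjusted p of 0.05 as reported and under most other ways of processing the same counts. Factors higher on HSD are drawn to the right in red and factors lower on HSD to the left in blue. The fit with a replicate block, with 1 higher and 0 lower, is not drawn. The count reported is 6 higher and 0 lower, it is 14 higher with 2 lower under limma-voom, and 2 higher with 16 lower under library totals alone. Of all tested genes 14.4% were higher and 11.6% lower as reported. The shares were 19.1% and 18.2% under limma-voom, and 8.8% and 40.3% under library totals alone.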

How the data were processed

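The authors' deposited table holds whole-number read counts per gene, not normalized, for 8 libraries. The submitters' processing notes name Trim Galore 0.6.7 for trimming, STAR 2.7.10a for alignment, featureCounts for counting and the build dm6. Whether counting used strand or multiply mapped reads is not stated in the sources used here. Symbols, positions and exon lengths came from the Ensembl 115 annotation. Of 12 same-diet library pairs none was identical. Chi-square per degree of freedom was 123.1 to 127.7 in pairs with CD replicate 1 and 7.67 to 19.86 in other CD pairs. On HSD it ran from 16.2 to 65.45.

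From the counts, edgeR 4.0.16 in R 4.3.3 fitted diet as the only term by robust quasi-likelihood, after filterByExpr with a minimum count of 10 (7844 genes, 99.957% of counts) and TMM scaling. The common biological coefficient of variation was 0.101. P-values were adjusted by Benjamini-Hochberg over all tested genes with a threshold of 0.05, and the standard error is the log2 fold change over the square root of F. CPM per kilobase divides TMM-scaled CPM by the union of a gene's exons. Ratios, sums and shares carry no test. Named genes were the factors past the threshold, the most abundant per complex, their paralogs, Thor, and up to 4 further genes per partner list by p. Members and lists were chosen with earlier results of these data known. Alternatives were scaling by RLE, by upper quartile or by library size alone, other low-count filters, DESeq2 1.42.0, limma-voom (limma 3.58.1) with quality weights, a replicate block, a threshold of 0.1, leaving out libraries, longest-transcript lengths and, chosen after seeing the data, an exon-length offset. The pair of libraries left out together was defined by values of these same counts.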

Additional observations from a re-analysis of the deposited data

Results flagged for a closer look

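The CPM of eIF3a, the large scaffold subunit of eIF3, was lower in HSD replicate 4 than in the other HSD libraries. It stood at 627.4 CPM there, while the nearest HSD library was at 695.8 and the highest at 709.0, so the gap was 0.838 of the range of the 4 libraries, just over Dixon's 95% critical value for groups of 4. Each tested factor was examined in each diet, which gave 88 groups of 4 libraries, and chance alone passes this limit in about 1 of 20 groups. This was the 1 case found. HSD replicate 4 is also the library whose deviations had a Spearman correlation of −0.71 with exon length over the 44 factors, and eIF3a, with 3892 bases of exon, is among the longer ones. The part of that trend in the eIF3a value was not tested.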

How the results depend on the processing

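The count of factors higher on HSD, 6 as reported, was 2 with library totals as the only scaling, 10 with DESeq2, 14 with limma-voom, 14 without CD replicate 1 and HSD replicate 4, and 10 with the exon-length offset. RLE scaling and the filter requiring 5 CPM in 4 libraries each gave 8. At a threshold of 0.1 eIF3g1, eIF3m and eEF2 were higher as well. Leaving out single libraries gave 5 to 13, with 13 without CD replicate 1. The count lower, 0 as reported, was 1 with RLE scaling, 1 with the filter requiring 5 CPM in 4 libraries, 16 with library totals alone, 2 with DESeq2, 2 with limma-voom, 3 without CD replicate 1 and HSD replicate 4, 3 with the offset and 2 at a threshold of 0.1, and 0 to 2 when single libraries were left out. With library totals alone the median log2 fold change of the factors was −0.11 and that of all tested genes −0.17. The partner lists, with 5 higher and 7 lower, gave 2 and 23 with library totals alone, and lower counts of 4 without the low-count filter and 12 with limma-voom. Single libraries left out gave 3 to 6 higher and 3 to 10 lower, with 3 higher without CD replicate 5. The calls over all tested genes moved too, from 14.4% higher and 11.6% lower as reported to 8.8% and 40.3% with library totals alone, 15.1% and 13.1% with DESeq2, 19.1% and 18.2% with limma-voom, 17.9% and 16.3% without CD replicate 1 and HSD replicate 4, 16.9% and 16.4% with the offset, 14.3% and 11.9% with RLE scaling, 15.6% and 12.8% with the 5 CPM filter and 9.73% and 7.76% without a filter. Leaving out single libraries they ran from 11.7% to 17.7% higher and from 8.34% to 15.4% lower, with the highest of both without CD replicate 1. Those at a threshold of 0.1 are not given here. The cause of these shifts was not tested.

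eIF3h kept its call in all 18 alternatives, and eEF1alpha1 in all but the fit with a replicate block (edgeR adjusted p = 0.122). eIF1A, eIF2A and eIF4A lost it with library totals alone and with the replicate block, and eEF5 also without HSD replicate 2, CD replicate 3 or CD replicate 5. Replicate numbers 1, 3 and 4 occur in both diets, and the deviations of same-numbered libraries correlated at −0.18, −0.09 and −0.21. Those of other pairs ran from −0.21 to 0.27, so with 4 libraries per diet this cannot decide whether libraries were paired. The numbers were not taken to pair libraries in the fit reported. With the replicate block, 1 factor was higher and 0 lower, and the partner lists gave 1 higher and 0 lower, in a fit that called 7.51% of all tested genes higher and 3.23% lower. Replicate 2 occurs only on HSD and replicate 5 only on CD, so in that fit these libraries do not inform the diet term. The fit therefore has less power than the one reported. Its log2 fold change of eEF1alpha1 was 0.28. eIF5, eEF1alpha2 and the factors under the filter hold too few counts to read a difference.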
